A study of Homo sapiens with 2 samples.

Results

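The autophagy and lysosome genes described here are a list of 37 genes for the start of autophagy, the conjugation of ATG8 proteins, cargo receptors, the lysosome and the transcription factor TFEB. They were found on the array as the probes other than control spots whose gene name is on the list. In all, 36 of the 37 names had a probe, with 60 probes among them, out of 30484 gene names on the array. A probe was counted where one and the same RNA, control or miR-204, gave a signal well above background on each array. That left 56 probes for 35 of the genes, out of 18585 gene names counted by the same rule. MAP1LC3A, a member of the LC3 group of ATG8 proteins, was not counted, because its only probe cleared background in no channel. AMBRA1, which promotes the assembly of the Beclin 1 complex, had no probe under that name.

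HEK-293, a human embryonic kidney cell line, was transfected for 48 h with 75 nM of either a miR-204 mimic, a synthetic oligonucleotide that acts as the mature microRNA, or a scrambled oligonucleotide as the control. Cells were kept in serum-containing medium, which both groups share, and total RNA was taken from whole cultures. Both RNAs were hybridized together on 2-colour Agilent whole genome arrays, with the control in Cy3 and miR-204 in Cy5 on the first array and the dyes exchanged on the second, called the swap array here. No second transfection is named, so the 2 arrays were treated as 1 replicate. No p-value between the conditions was used for a result, and the spread between cultures is unknown. In such bulk RNA, fewer cells with a transcript and less of it in each cell cannot be told apart. All ratios below are log2 values of miR-204 over control, with the swap array turned so that a negative value means less RNA with miR-204 on either array.

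In autophagy, a membrane called the phagophore grows around cytoplasm, closes into an autophagosome and fuses with a lysosome, where hydrolases digest the content. The ULK1 kinase complex and the class III phosphatidylinositol 3-kinase start the process, ubiquitin-like conjugation attaches ATG8 proteins (the LC3 and GABARAP groups) to the membrane, and cargo receptors bind them. A microRNA binds mRNAs mainly through its seed near the 5′ end and lowers their amount or their translation. MAP1LC3B in kidney cells and MCOLN1 in melanoma have been reported as targets of the miR-204 family, which is why both are given in full below.

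The mature RefSeq sequences of the 2 family members are shown because the mimic carries the first and because both share a seed, the part in capitals (bases 2 to 8). In GRCh38.p14, hsa-miR-204-5p lies at chr9:70810031-70810052 and hsa-miR-211-5p at chr15:31065095-31065116, both on the minus strand. They are 22 bases long and differ at 2 positions, both outside the seed.
hsa-miR-204-5p: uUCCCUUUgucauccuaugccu
hsa-miR-211-5p: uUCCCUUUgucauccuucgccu

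No counted member differed by 1.5-fold or more between miR-204 and control cells in the mean of both arrays. By that rule, which also asks for the same sign on each array, 0 of 35 members were lower, against 2.06% of all counted gene names, and 0 were higher, against 1.44%. At 2-fold the members again gave 0 lower, against 0.452% of gene names, and 0 higher, against 0.151%. Since so few gene names passed either fold, 0 of 35 is near the share in all genes. The lowest mean log2 ratio was -0.37 for GABARAPL1, an ATG8 protein, and the highest was 0.34 for ATG16L1, a scaffold of the conjugation machinery. Over all gene names the means ran from -2.09 to 2.04.

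The members lay close to 0. Their median of the means was -0.0024, beside 0.0022 for all gene names, and 18 of the means were negative and 17 positive. Means within 0.1 of 0 were found for 18 members (51.4%), beside 37.2% of all gene names, and within 0.2 for 28 members (80%), beside 63.7%. For the 111 counted genes of a wider list of other pathway genes, described below, these shares were 41.4% and 69.4%. Among them, the 35 other hydrolases had 45.7% and 77.1%, and the 26 other autophagy genes 38.5% and 53.8%. The median size of the mean, regardless of sign, was 0.097 for the members, 0.14 for all gene names, and 0.14 for the 17230 gene names whose probe cleared background in each of the 4 channels, a filter that 34 members pass. Of those 17230, 38.7% had a mean within 0.1 of 0 and 66.2% within 0.2. No test was made of these differences, and they are a description.

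**Figure D1:**
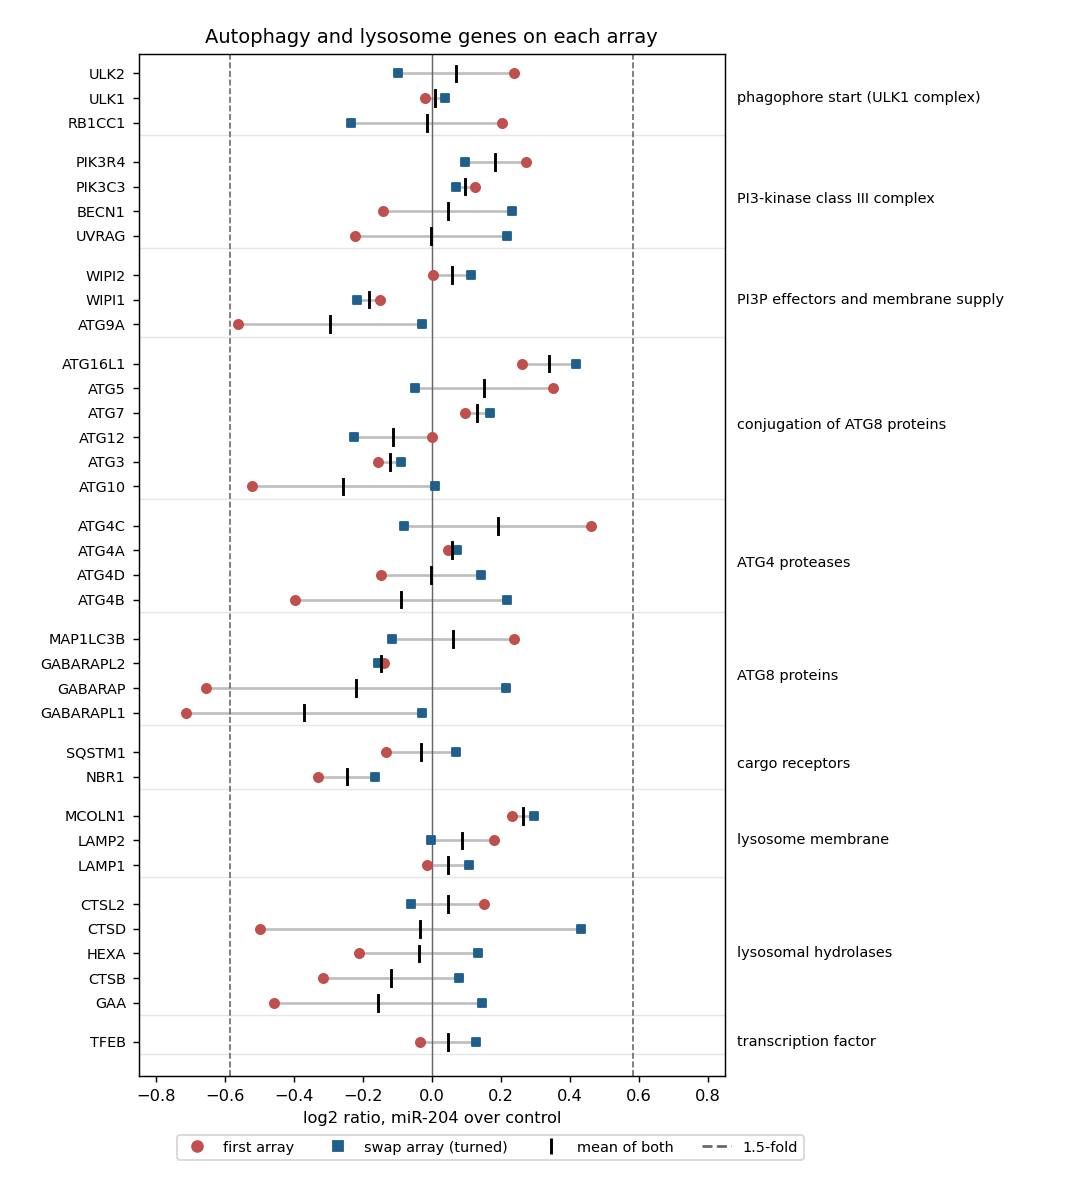
Log2 ratio of miR-204 over control (x axis) for the 35 counted autophagy and lysosome genes, grouped by role, with the first array as circles, the turned swap array as squares, the mean as a bar and 1.5-fold as dashed lines. All 35 means lie between -0.37 and 0.34, and the points of GABARAPL1 and GABARAP on the first array are the ones past 1.5-fold.

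Most members had opposite signs on the 2 arrays. A lower ratio on both arrays was seen for 6 members (17.1%), beside 22.8% of gene names, namely GABARAPL1, ATG9A, NBR1, WIPI1, GABARAPL2 and ATG3. A higher ratio on both was seen for 7 (20%), beside 24.5% of gene names, namely WIPI2, ATG4A, PIK3C3, ATG7, PIK3R4, MCOLN1 and ATG16L1. The other 22 (62.9%) changed sign between arrays, as did 52.5% of all gene names. Of these, 14 had a negative ratio on the first array and a positive one on the other, a pattern that 24.7% of gene names had, and 8 were the reverse, beside 27.8%. The median over members was -0.03 (first array) and 0.07 (swap array), and over all gene names it was 0.02 and -0.0040.

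Because a dye effect changes sign when the dyes are exchanged, a gene with opposite ratios of like size averages to about 0. The ratios of the 35 members on the first array had a Pearson r of -0.18 and a Spearman rho of -0.20 with those on the swap array, and over all gene names r was -0.02 and rho -0.05. The points are genes measured on the same pair of arrays, not independent replicates, and no p-value is given. The first array had the larger ratio in size for 22 members (62.9%), close to the 62.4% of all gene names. The SD over members was 0.30 (first array) and 0.17 (swap array), beside 0.43 and 0.32 over all gene names.

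**Figure D2:**
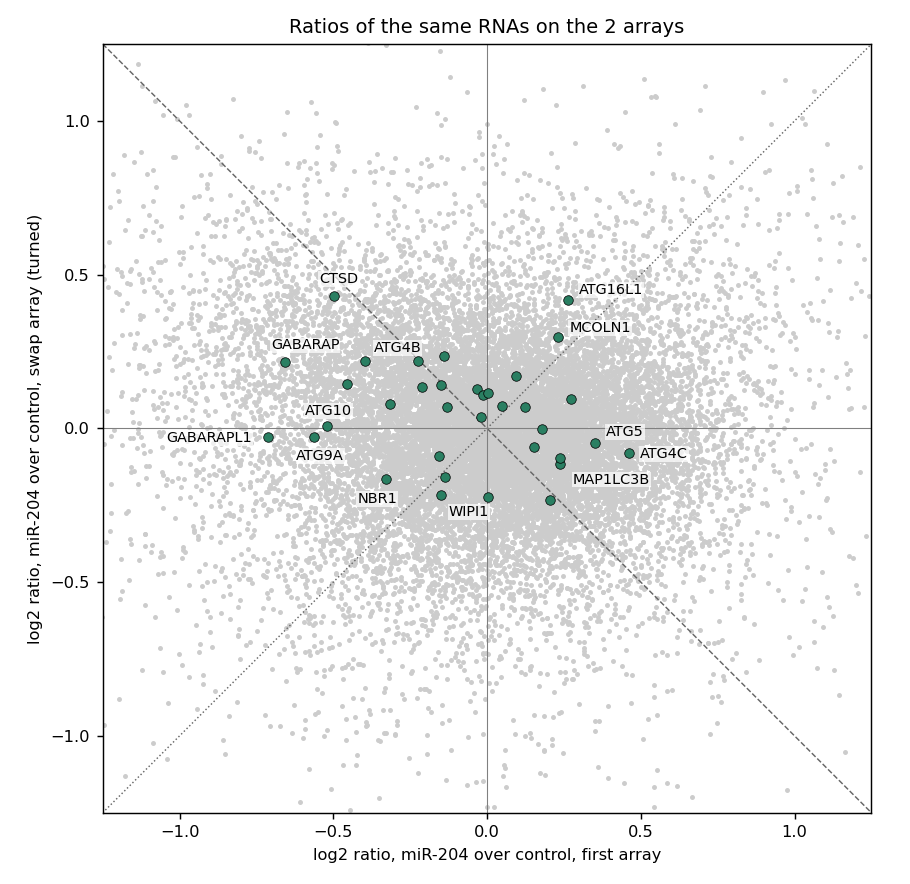
Log2 ratio of miR-204 over control on the first array (x axis) against the turned swap array (y axis) for all counted gene names (grey) and the 35 members (green), with equal ratios on the dotted line and opposite ratios on the dashed line; the most extreme gene names fall outside the frame. Of the members, 22 lie in the quadrants of opposite sign, while ATG16L1 and MCOLN1 lie near the dotted line on the positive side.

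MAP1LC3B encodes the LC3 protein most used as a marker of autophagosomes, and it had 3 counted probes, all in the same gene region on the plus strand of hg18. The probe at chr16:85994259-85994318 had a processed signal of 1575 in control and 1786 in miR-204 RNA on the first array, and 1264 and 1189 on the swap array. The probe at chr16:85995467-85995526 had 716 and 840 on the first array and 628 and 549 on the swap array. For the probe at chr16:85994941-85995000 these signals were 518 and 617, then 395 and 384. All 3 probes were thus higher with miR-204 on the first array, by log2 ratios of 0.20 to 0.27, and lower with miR-204 on the swap array, by -0.20 to -0.05. The gene's ratios were 0.24 and -0.11, with a mean of 0.06, which is smaller than the gap of 0.35 between the arrays. No direction for MAP1LC3B can be read from these arrays.

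MCOLN1 encodes mucolipin-1 (TRPML1), a calcium channel of the lysosome membrane. Its probe at chr19:7499764-7499823 was dim, with a processed signal of 32.1 in control and 38.0 in miR-204 RNA on the first array. On the swap array it read 16.3 in control and 18.4 in miR-204 RNA, and the last of these was not well above background. Both arrays gave a ratio above 0, 0.23 and 0.30, with a mean of 0.26, and 11.4% of gene names had a mean as high or higher. Beside these, spotted probes this dim had a median SD between spots of 0.19 (first array) and 0.22 (swap array), as described below. The ratio of the reported target MCOLN1 was thus not below 0 on either array, but a probe this near background does not settle its direction. Across the 10 other background corrections, normalizations, filters and gene summaries that give it a value, the mean ran from 0.05 to 0.37.

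Among the ATG8 proteins, which join the autophagosome membrane and bind cargo receptors, GABARAPL1 and GABARAP gave the 2 lowest ratios of all members on the first array. GABARAPL1 had 2 counted probes. The probe at chr12:10266325-10266384 read 1626 in control and 1053 in miR-204 RNA on the first array, and 1006 and 935 on the swap array. The second, at chr12:10265943-10266002, read 578 and 325 on the first array and 341 and 351 on the swap array. The lower value with miR-204 was therefore seen on the first array with both probes (-0.61 and -0.82), while on the swap array they gave -0.10 and 0.04. Its gene ratios of -0.71 and -0.03 average to -0.37, and 6.91% of gene names had a mean as low or lower.

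GABARAP itself had 1 probe, with processed signals of 4975 in control and 3091 in miR-204 RNA on the first array and 3123 and 3649 on the swap array. The first array gave a ratio of -0.66 and the swap array 0.22, so the arrays disagreed on its direction and the mean was -0.22. GABARAPL2 was lower on both, by small ratios of -0.14 and -0.16. Taking the first array alone, GABARAPL1 and GABARAP passed 1.5-fold, as did 8.39% of all gene names in the lower direction. On the swap array alone no member passed it, against 3.44% of all gene names lower and 2.93% higher. The median over the 4 counted ATG8 members was -0.40 on the first array, -0.07 on the swap array and -0.18 in the mean. GABARAPL3, not a member but on the wider list of other pathway genes below, had ratios of -0.80 and -0.11. Its mean was -0.46, from a dim probe with processed signals of at most 79.5. MAP1LC3C on that list was not counted. MAP1LC3A read 5.58 in control and 4.93 in miR-204 RNA on the first array and 6.15 and 6.70 on the swap array, all of them not well above background.

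Conjugation of the ATG8 proteins runs through the E1-like ATG7, the E2-like ATG3 and ATG10, and a complex of ATG12, ATG5 and ATG16L1. ATG16L1, which places that complex on the membrane, had the highest mean of all members. Its probe at chr2:233868639-233868698 read 1197 in control and 1317 in miR-204 RNA on the first array and 774 and 904 on the swap array. Its dim probe at chr2:233856287-233856346 read 36.3 and 47.8, then 22.1 and 32.4. Both probes were higher with miR-204 on both arrays, the bright one by 0.13 and 0.22 and the dim one by 0.39 and 0.61. The gene's ratios were 0.26 and 0.42, with a mean of 0.34 that 6.93% of gene names matched or passed. With the brighter probe alone its mean was 0.18.

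ATG5, which is joined to ATG12, had signals of 1083 in control and 1441 in miR-204 RNA on the first array and 911 and 773 on the swap array at chr6:106740559-106740618. At chr6:106739445-106739504 it read 395 and 483, then 260 and 290. The gene was higher on the first array (0.35) and near 0 on the other (-0.05), and on the swap array its probes had opposite signs. ATG10, the enzyme that carries ATG12 to ATG5, showed the reverse. Its probe at chr5:81390072-81390131 read 113 in control and 68.4 in miR-204 RNA on the first array and 55.9 and 61.1 on the swap array, and the other read 206 and 163, then 141 and 133. The ratios of ATG10 were thus -0.52 and 0.01. ATG7 was higher on both by 0.10 and 0.17, ATG3 was lower on both by -0.15 and -0.09, and ATG12 had 0.0021 and -0.22.

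The ATG4 proteases cut ATG8 proteins before conjugation and release them from membranes afterwards. ATG4C had a mean of 0.19 from ratios of 0.46 and -0.08. Its probe at chr1:63103096-63103155 read 336 in control and 489 in miR-204 RNA on the first array and 228 and 232 on the swap array, and its other probe read 521 and 669, then 395 and 351. The higher value came from the first array with both probes. ATG4B had -0.40 and 0.22. One ATG4B probe read 679 in control and 510 in miR-204 RNA on the first array and 370 and 500 on the swap array. The other read 1384 and 1047, then 868 and 885. In that order, its probes agreed on the first array (-0.40 for each) and gave 0.42 and 0.02 on the swap array, so their means differed in sign (0.01 and -0.19). ATG4A was slightly higher on both arrays, by 0.05 and 0.07, and ATG4D had -0.15 and 0.14.

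At the start of autophagy, all 3 counted genes of the ULK1 complex had means within 0.1 of 0. The kinase ULK1 had ratios of -0.02 and 0.04, its relative ULK2 0.24 and -0.10, and the scaffold RB1CC1 (FIP200) 0.20 and -0.23. Each of the 3 changed sign between arrays. In the class III phosphatidylinositol 3-kinase complex, the regulatory subunit PIK3R4 (VPS15) was higher on both arrays, with signals of 644 in control and 766 in miR-204 RNA on the first and 481 and 521 on the swap array. Its ratios were 0.27 and 0.10, with a mean of 0.18. The catalytic subunit PIK3C3 (VPS34) had 0.12 and 0.07, while BECN1 (Beclin 1) had -0.14 and 0.23 and its partner UVRAG had -0.22 and 0.22. No member of that complex had a negative ratio on the swap array.

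WIPI1 and WIPI2 bind the lipid that this kinase makes, and ATG9A is a membrane protein whose vesicles seed the phagophore. ATG9A read 1447 in control and 970 in miR-204 RNA on the first array and 928 and 913 on the swap array, giving ratios of -0.56 and -0.03 and a mean of -0.29. Its lower value, like that of GABARAPL1, rested on the first array. WIPI1 was lower by a similar amount on both, with 985 and 870, then 619 and 537, and ratios of -0.15 and -0.22. For WIPI2 the ratios were 0.0026 and 0.11, and its 3 probes disagreed in sign, with means of 0.16, 0.13 and -0.12. The first of these probes read 3031 in control and 3335 in miR-204 RNA on the first array and 2072 and 2333 on the swap array. The next read 885 and 927, then 599 and 673. The brightest, with the negative mean, read 12584 and 10596, then 8392 and 8403. WIPI1 and WIPI2 thus had means of opposite sign, -0.18 and 0.06. The AMBRA1 transcript had a probe under an older name, FLJ20294, matched by its accession and kept outside the counts, which read 1472 in control and 1239 in miR-204 RNA on the first array and 992 and 928 on the swap array, for ratios of -0.25 and -0.09.

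Both cargo receptors among the members, which tie ubiquitinated cargo to ATG8 proteins, had negative means, though only NBR1 was lower on both arrays. Other receptors were in the wider list of other pathway genes, described below. There OPTN, CALCOCO2, TAX1BP1, BNIP3, BNIP3L and FUNDC1 had means of -0.03, 0.13, 0.07, 0.55, 0.28 and 0.06. NBR1 read 8641 in control and 6814 in miR-204 RNA on the first array, and 5686 and 5088 on the swap array. Its ratios of -0.33 and -0.17 shared a sign, and the mean of -0.25 was larger in size than the gap of 0.16 between the arrays. SQSTM1 (p62), which is itself degraded by autophagy, read 4224 and 3808 on the first array and 3210 and 3376 on the swap array at chr5:179196315-179196374. That gave ratios of -0.13 and 0.07 and a mean of -0.03. A second SQSTM1 probe cleared background in no channel.

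The lysosome membrane genes had means of 0.05 for LAMP1, 0.09 for LAMP2 and 0.26 for MCOLN1. LAMP1 and LAMP2 are the main glycoproteins of that membrane, and LAMP2A, one splice form, is the receptor of chaperone-mediated autophagy. The LAMP1 probe at chr13:113025668-113025727 read 19427 in control and 18819 in miR-204 RNA on the first array and 13553 and 11838 on the swap array, for ratios of 0.03 and -0.20. Its dim probe at chr13:113023724-113023783 read 58.4 and 56.3, then 36.9 and 49.0, for ratios of -0.06 and 0.42. By these ratios the 2 LAMP1 probes disagreed in sign on both arrays, and with the brighter one alone the mean of the gene was -0.09. Ratios come from quantile normalized signals, so the 0.03 of the brighter probe is positive though its processed signal was lower with miR-204. On the first array the processed signals of both probes were lower with miR-204. The LAMP2 probe listed for the LAMP2A transcript, at chrX:119448995-119449054, read 425 and 416 on the first array and 333 and 323 on the swap array (ratios of -0.0087 and -0.05). The probe listed for LAMP2B, at chrX:119455222-119455281, read 694 and 885, then 410 and 427 (0.37 and 0.04).

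All 5 lysosomal hydrolases changed sign between arrays, and all their means were between -0.16 and 0.05. CTSD, the aspartic protease cathepsin D, read 149 in control and 105 in miR-204 RNA on the first array and 84.6 and 115 on the swap array. Its ratios of -0.50 and 0.43 were the farthest apart of any member, 0.93, and its mean was -0.03. GAA, which digests glycogen, had -0.46 and 0.15, and HEXA, a subunit of hexosaminidase, had -0.21 and 0.14. CTSL2, now named CTSV, a cysteine cathepsin, was the one hydrolase higher on the first array, with 0.15 and -0.06.

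CTSB, the cysteine protease cathepsin B, had 3 probes that disagreed. Their signals on the first array were 4276 in control and 3254 in miR-204 RNA for the first, 1840 and 957 for the next, and 416 and 521 for the last. On the swap array they were 2793 and 2829, 941 and 1153, and 339 and 325. The ratios were -0.37, -0.92 and 0.35 on the first array and 0.01, 0.29 and -0.07 on the swap array. This was the widest spread among probes of any member, 0.45 between the highest and the lowest mean, around a gene mean of -0.12.

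TFEB, the transcription factor that activates lysosomal and autophagy genes, read 371 in control and 360 in miR-204 RNA on the first array and 265 and 292 on the swap array at chr6:41759977-41760036. The ratios were -0.03 and 0.13, with a mean of 0.05, and in 1 of 11 other settings the mean was negative. TFEB binds elements around the palindrome CACGTG, which reads the same on both strands. The RefSeq promoter table of GRCh38.p14 (250 bases before to 50 after each start) held 30 of the 37 members, and 5 of these (16.7%) contained CACGTG, namely ATG3, CTSD, GAA, LAMP1 and MCOLN1. It was found for 8.78% of all 27305 genes there, and for 17.6% of the 91 held from the wider list of other pathway genes, described below. A gene was taken to hold it where any of its promoters did. The longer form TCACGTGA, which overlaps it, was in 4 members (13.3%), all of the 5 above but CTSD. It was in 1.18% of all genes and 6.59% of the other pathway genes. The table has no entry for CTSB, RB1CC1, ATG4D, UVRAG, MAP1LC3A, HEXA and LAMP2.

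For these 5 members, the stretches holding the matches that lie wholly upstream of the start are shown because TFEB is on the list. Genes with such letters can be compared by their ratios, and whether TFEB binds the matches was not tested. Capitals mark CACGTG, and each stretch is written 5′ to 3′ on the gene's strand. In GRCh38.p14 they lie at chr3:112561963-112561992 on the minus strand for ATG3, chr11:1763957-1763986 on the minus strand for CTSD, chr17:80101493-80101567 on the plus strand for GAA, chr19:7522571-7522623 on the plus strand for MCOLN1 and chr13:113297035-113297228 on the plus strand for LAMP1.
ATG3: cctttctcacgtCACGTGccgggagagtct
CTSD: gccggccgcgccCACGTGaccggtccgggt
GAA: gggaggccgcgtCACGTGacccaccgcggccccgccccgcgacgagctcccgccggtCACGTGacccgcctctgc
MCOLN1: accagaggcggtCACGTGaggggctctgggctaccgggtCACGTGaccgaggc
LAMP1: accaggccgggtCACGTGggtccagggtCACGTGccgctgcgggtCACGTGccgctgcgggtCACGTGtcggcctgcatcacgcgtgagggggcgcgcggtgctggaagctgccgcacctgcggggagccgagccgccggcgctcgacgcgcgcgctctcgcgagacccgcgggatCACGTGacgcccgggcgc

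The printed stretch of LAMP1 holds 5 matches, those of GAA and MCOLN1 hold 2 each, and those of ATG3 and CTSD hold 1 each. A further match each in ATG3, which is its one TCACGTGA, and in LAMP1 lies beyond or across the start and is not printed. The printed match nearest the start lay 14 bases before it in MCOLN1 and 47 in CTSD. The mean ratios of these 5 genes ran from -0.16 (GAA) to 0.26 (MCOLN1) with a median of -0.03, and the 24 counted members whose window lacked the motif had a median of 0.05. Of the 5, ATG3 was lower on both arrays and MCOLN1 higher on both, and the other 3 changed sign. In the wider list of other pathway genes, the 15 counted genes with the motif had a median of 0.09 and the 66 without it 0.05. A match is a description of the letters in this window, and binding was not measured.

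How far probes and arrays each contributed can be seen in the 17 members with more than 1 counted probe. The gap between the arrays was larger than the range among probes of the same array, on both arrays, in 10 of the 17, MAP1LC3B and GABARAPL1 among them. Their median gap between arrays was 0.35, and the median range among probes was 0.21 (first array) and 0.19 (swap array). The probe means over both arrays lay closer together, with a median range of 0.09. For comparison, over 140 probes spotted 10 times on each array and well above background in all channels, the median SD of the log2 ratio between spots was 0.05 on each array. A mean processed signal under 100 was found for MCOLN1, UVRAG, the dim probes of ATG16L1 and LAMP1, and the ATG10 probe at chr5:81390072-81390131. For repeatedly spotted probes under 100, that SD was 0.19 (first array) and 0.22 (swap array) over 11 probes. These spreads cover the array alone.

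**Figure D3:**
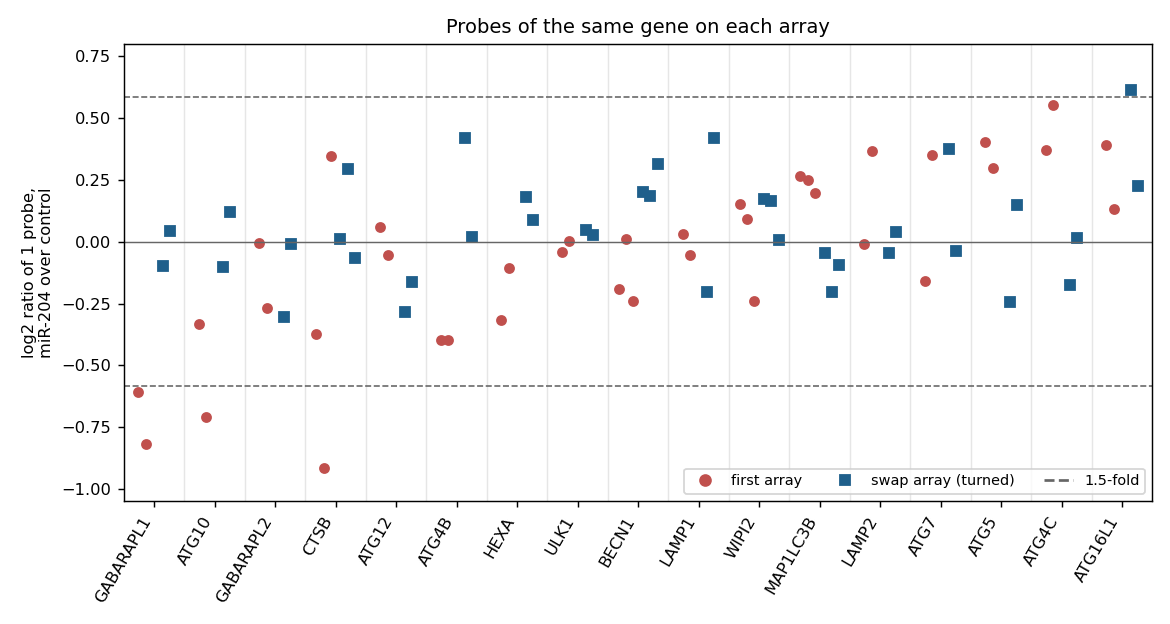
Log2 ratio of miR-204 over control (y axis) for each counted probe of the 17 members with more than 1, with the first array as circles and the turned swap array as squares, ordered by gene mean, and 1.5-fold as dashed lines. Both GABARAPL1 probes lie past 1.5-fold on the first array and near 0 on the swap array, and the 3 MAP1LC3B probes lie above 0 on the first array and below 0 on the swap array.

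A wider list of 125 other genes of the pathway was read from the same arrays: other autophagy genes, the vacuolar ATPase that acidifies lysosomes, other hydrolases, other lysosomal membrane and transport proteins, and the relatives of TFEB. Of the 111 that were counted, 0 were lower by 1.5-fold, against 2.06% of all gene names, and 2 were higher, against 1.44%, which is near the share in all genes, and none passed 2-fold. DRAM1, a lysosomal membrane protein induced by p53 and named DRAM on the array, had ratios of 0.95 and 0.68 over 2 counted probes of 3. EPG5, a tether for fusion of autophagosomes with lysosomes and named KIAA1632 on the array, had 0.85 and 0.36 from 1 counted probe of 4. The probes were dim, with processed signals of at most 125 for DRAM1 and 82.1 for EPG5. Their ratios under other background corrections are not given. Both genes belong to the other autophagy genes, of which 26 were counted.

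Of those 111 genes, 11 were lower on both arrays (9.91%, beside 22.8% of all gene names) and 41 higher on both (36.9%, beside 24.5%), where the 35 members had 6 and 7. Their median was -0.01 on the first array, 0.14 on the swap array and 0.05 in the mean, where the members had -0.03, 0.07 and -0.0024. By list, 8 of 22 vacuolar ATPase genes were higher on both arrays and 1 lower, 14 of 35 other hydrolases higher and 4 lower, 10 of 26 other lysosomal membrane and transport genes higher and 3 lower, and 8 of 26 other autophagy genes higher and 3 lower, to be read beside the same 24.5% higher and 22.8% lower of all gene names. TFE3 had a mean of -0.09 and MITF of 0.17, and TFEC was not counted. These counts were not tested against the rest of the array.

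**Figure D4:**
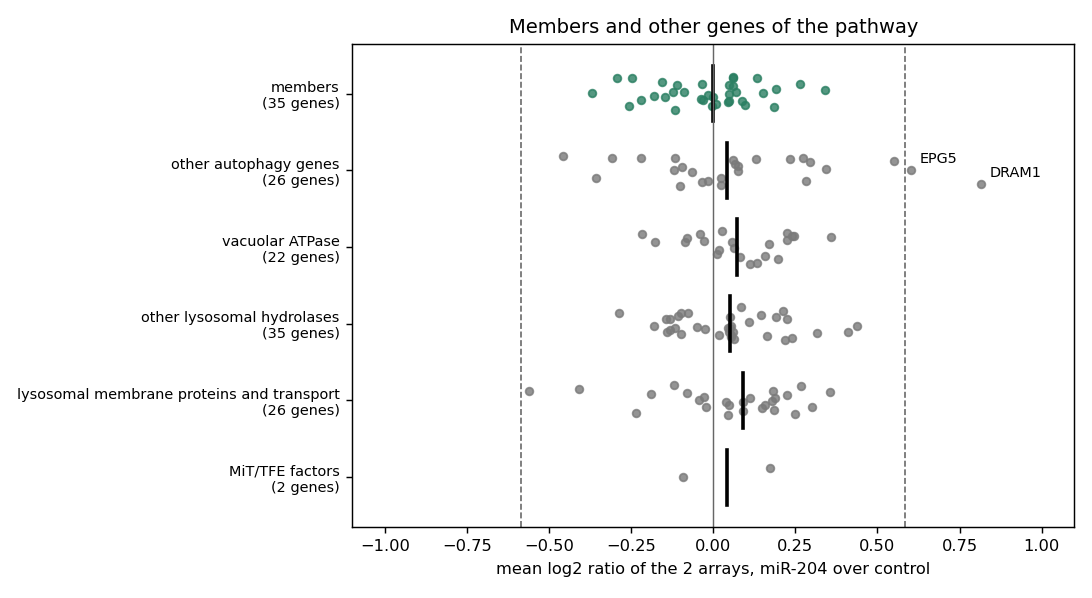
Log2 ratio of miR-204 over control, averaged over both arrays (x axis), for the 35 members (green) and the 111 other counted genes of the pathway (grey) by list, with the median as a bar and 1.5-fold as dashed lines; the vertical position of a point within its row has no meaning. DRAM1 and EPG5 are the 2 genes past 1.5-fold with one sign on both arrays.

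Each array held 43376 spots other than controls for 41000 probes, of which 25270 were counted, and between 25284 and 29024 spots per channel were well above background. The fewest were in the miR-204 channel of the swap array, the one channel in which the MCOLN1 probe failed that criterion. No member probe was saturated or carried an outlier flag. Markers of HEK-293 cells were counted for 6 of 7 genes (KRT8, KRT18, VIM, CDH2, NEFM and NEFL), and PAX2 cleared background in no channel. Of 8 markers of other cell types, PTPRC, CD3E, PECAM1, CDH5 and ALB were not well above background in any channel, CD14 was not counted, and COL1A1 and DES were counted. NEFM was lower by -0.71 and -0.55 and DES higher by 0.12 and 1.07, and the part of either in the ratios of the members was not tested.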

How the data were processed

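Total RNA of HEK-293 cells given miR-204 mimic or scrambled oligonucleotide was measured on 2 arrays that form 1 dye swap. The authors read the slides in Feature Extraction 9.5.3.1. Processed signals as deposited are intensity values, with background subtracted and dyes balanced by linear and lowess steps within each array, and signals not above background replaced by a surrogate. Mean spot and local background signals were deposited as uncorrected intensity values. The authors' log10 ratio of Cy5 over Cy3 and its p-value, deposited for each spot, come from the same software and entered no result here. The series table deposited by the authors holds log2 ratios, quantile normalized between arrays in MATLAB, and was used as an alternative.

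Here log2 processed signals were averaged over the spots of a probe, 128 probes flagged as outliers were dropped, and the 4 channels were quantile normalized (limma 3.58.1, R 4.3.3). Counted probes then had a median log2 ratio of 0.02 (first array) and -0.0067 (swap array). A gene is the mean of its counted probes. Quantile normalization assumes that the channels share one distribution, and these surrogates make ratios of dim probes depend on the background correction. The files give probe positions on hg18, whose gene models were not used here, so exon or UTR placement is not given. Names of the other pathway genes were matched through current symbols and unique synonyms of RefSeq, which found 123 of 125. Promoters and microRNAs come from RefSeq tables of GRCh38.p14, and 3′ UTRs were not analysed here.

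With 1 replicate, no test between conditions was used for a result, and the number of arrays limits the precision. As alternatives, limma and the t-test of the methods were run over the arrays. Quantile normalization and the call by fold were tested on simulated data. That simulation held no surrogate signals and does not show how reliable calls are in these data. Members and gene lists were chosen with earlier results of these data known. Given in full are MAP1LC3B, MCOLN1, TFEB, SQSTM1, the 4 lowest and 4 highest members that cleared background in all channels, and members whose probes differ in sign. GABARAP, WIPI1 and CTSD were added after their values were seen, the first for its ratio on the first array and the last for its gap. Alternatives changed the background correction, normalization, filter, flags, gene summary, arrays, threshold and test.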

Additional observations from a re-analysis of the deposited data

How the results depend on the processing

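Across 11 other background corrections, normalizations, filters and gene summaries, 1 of them (quantile normalization over the counted probes alone) chosen after seeing the data, 0 members were lower and 0 higher at 1.5-fold or 2-fold. The first array alone gave 2 lower at 1.5-fold, GABARAP and GABARAPL1, against 8.39% of all gene names. The swap array alone gave 0 lower, against 3.44%, and 0 higher, against 2.93%. With mean signals left without background correction and loess within each array, 10 members were lower on both arrays and 3 higher, in place of 6 and 7. All gene names moved the same way, to 25.9% lower and 20.8% higher on both arrays, in place of 22.8% and 24.5%. Over those 11 settings the median of the members lay between -0.03 and 0.02, and on the first and swap arrays alone it was -0.03 and 0.07. Other counts of members stayed within 1.5 times the values given. Over all gene names, the number lower by 1.5-fold ran from 62 with normexp and loess to 877 without a filter on signal, in place of 383, and the number higher from 27 to 754, in place of 268; the first array alone gave 1559 and 1142.

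Of the genes given in full, and with both arrays kept, MCOLN1 and ATG16L1 moved most, to 0.05 and 0.12 with normexp background correction and loess, which adds an offset of 50 to signals that for MCOLN1 are smaller than that. LAMP1 and WIPI2 were negative, -0.09 and -0.12, with the brightest probe of each gene. TFEB was negative in 1 of 11 settings and LAMP1 in 3. Counts on both arrays cannot be given with 1 array. Over the arrays as if they were replicates, the t-test of the methods gave 1 of 56 member probes (ATG4A) under 0.05 unadjusted and 0 after Benjamini-Hochberg adjustment, and limma gave 0 and 0. Among all 25270 probes those numbers were 1604, 1, 1177 and 0. With 1 replicate they do not measure the spread between cultures. No analysis paired by replicate was possible because each condition has 1 replicate.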
